A study of Gallus gallus with 2 samples.

Results

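Back skin of Lueyang chickens was sequenced as 1 library from birds with white skin (WS) and 1 library from birds with black skin (BS). All birds were female and 16 weeks of age, 5 were sampled per color, and RNA of 3 birds per color was pooled, so neither library has a replicate and no test between the colors was possible. The deposited table lists 22853 loci, each with 1 value per library in FPKM (fragments per kilobase of transcript model, scaled to the mapped fragments of the library). The loci described here carry no name, span under 2000 bp from start to end, lie outside chromosome 16 and outside a block of chromosome 20, and did not have a failed estimate. There were 3403 of them, 14.9% of all loci and 64.2% of the 5301 unnamed ones. Of 3426 unnamed loci of this span, 4 were left out on chromosome 16 and 19 in the chromosome 20 block, and 0 had a failed estimate. All 3403 were above 0 in at least 1 library. Spans ran from 111 to 1992 bp with a median of 990 bp.

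An assembly of RNA-Seq reads joins overlapping reads into transcript models, and a model that matches no annotated gene is given an identifier alone. Short models of this kind can be pieces of an untranslated region beyond the annotated end of a gene, intronic or unspliced RNA, small structured RNAs, long non-coding RNAs or genes that the annotation lacks. A small step in span changes the FPKM of such a model greatly, because only fragments shorter than the model can be counted from it. Each locus is named below by its identifier in the table, its position and the nearest named locus. Positions are those of the table, for which the submitters' processing notes name galGal4. The paper's methods name another reference file, so the build was not settled, and no sequence was read at these positions.

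The skin label was checked against markers. Of 8 skin markers, 7 were found in the table and 6 were above 0 in both libraries, among them KRT15 (a keratin of the basal epidermis) at 1013 FPKM in WS and 579 in BS, and COL1A2 (a chain of type I collagen) at 6495 and 2852. The seventh found, KRT5, another basal keratin, was listed at 0 in both and is not among these 6. All 6 were lower in BS, and the skin markers found summed to 9402 FPKM in WS and 4497 in BS. The sums were 10619 and 20226 for skeletal muscle (3 of 4 found) and 3745 and 1505 for red blood cells (2 of 3). They were 29.0 and 116 for melanocytes (4 of 4), 1548.6 and 1917.5 for fat (2 of 2) and 36.7 and 45.9 for leukocytes (2 of 2). The part of tissue composition in the results was not tested, and fewer cells of a type cannot be told apart from less RNA per cell in such bulk libraries.

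Most of these loci rested on few fragments. The low FPKM values fell on discrete curves against span, each curve a whole multiple of the lowest, so that the worth of 1 fragment could be fitted in each library. The fit used a fragment length of 334 bp (SD 55) in WS and 321 bp (SD 56) in BS. For the 3288 loci of at least 300 bp, 98.8% of 1815 WS values and 99.1% of 1793 BS values under 12 fragments were whole within 0.1 fragment. For named loci of 300 bp to under 2000 bp, with the span taken as the length, 54 of 180 and 43 of 189 were. One fragment was worth 6.58 FPKM in WS and 3.71 in BS at a span of 300 bp, 0.361 and 0.280 at 500 bp, 0.0902 and 0.0741 at 1000 bp. A single fragment therefore raised the value further in WS than in BS at every one of these spans. The 115 loci under 300 bp were not fitted, and whole multiples were looked for at only 1 span among them. All 4 loci of 130 bp had WS values that were 1, 11, 19 and 27 times 327 FPKM and BS values that were 6, 5, 20 and 11 times 259 FPKM. The unit of 327 FPKM was the lowest WS value, and that of 259 FPKM was the lowest BS value divided by 5.

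**Figure D1:**
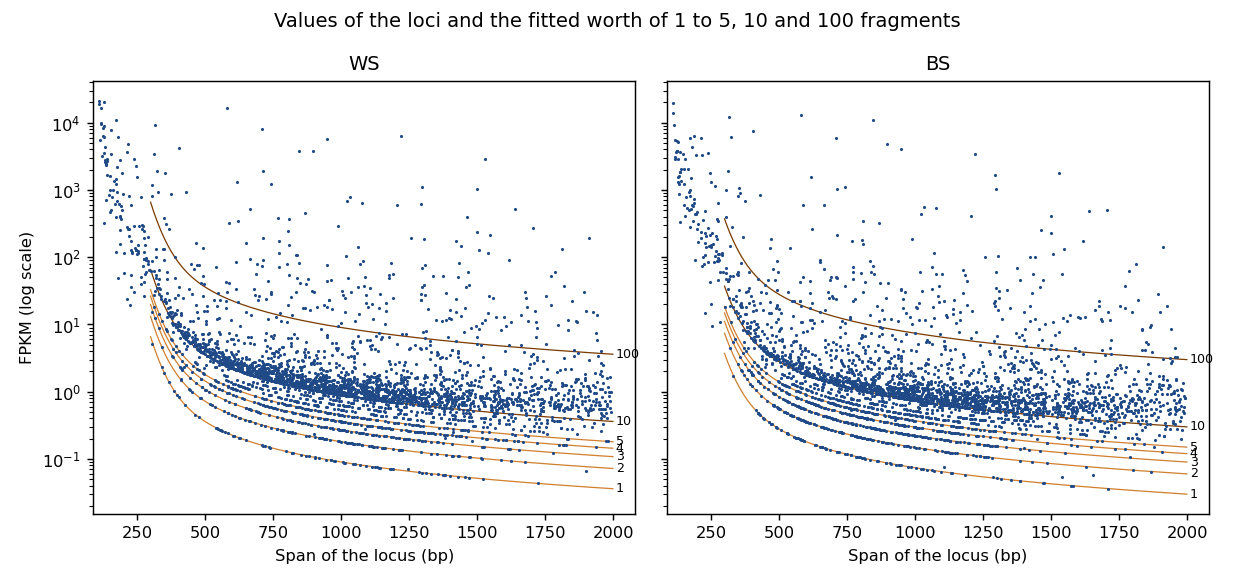
FPKM (log scale) of each unnamed locus under 2000 bp that was above 0, against its span in bp, in WS on the left and BS on the right. Lines are the fitted worth of 1 to 5, 10 and 100 fragments from 300 bp upward, and the lowest points lie on them as discrete steps.

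The number of fragments in the higher of the 2 libraries began sharply at 10. It was 9 at 16 loci, exactly 10 at 537, 11 at 403 and 12 at 342. It lay from 10 to 20 at 2348 of the 3288 loci (71.4%) and was under 10 at only 42. The median was 14 in the higher library and 12 in each library taken alone. Both libraries had 10 or more fragments at 1263 loci, WS alone at 1055 and BS alone at 928. The fragments summed to about 713000 in WS and 782000 in BS, and most lay in few loci: 261 loci had over 100 fragments in the higher library and held 94.3% of the WS fragments and 94.6% of the BS fragments.

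**Figure D2:**
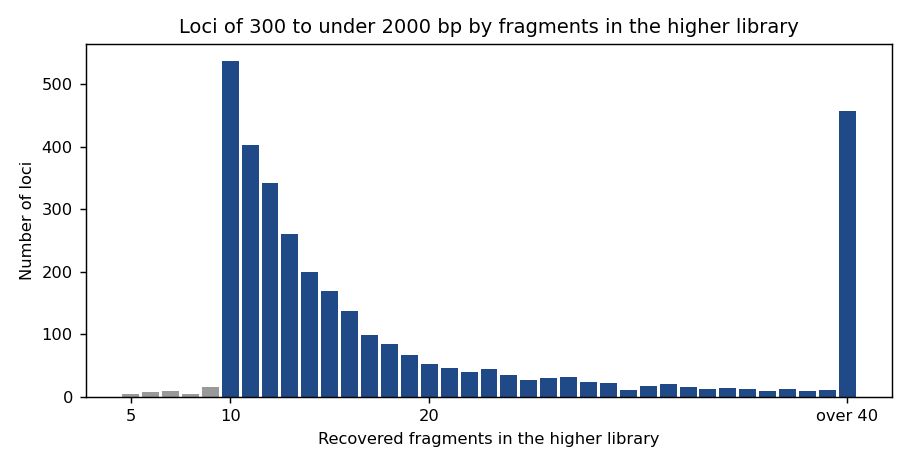
Number of unnamed loci of 300 bp or more by the fragments recovered in the higher library, with gray bars under 10. The count is highest at 10 fragments (537 loci) and falls from there, and loci over 40 are gathered in the last bar.

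The levels were low in both libraries. Medians were 1.16 FPKM in WS and 0.870 in BS, and 1097 loci (32.2%) stayed under 1 FPKM in both. At the other end, 66 loci reached 1000 FPKM, and 46 of those spanned under 300 bp. The highest values in both libraries were at XLOC_003097 (chr1:129773725-129773837, 112 bp, 15894 bp from KAL1), with 21253 FPKM in WS and 19452 in BS. XLOC_010112 (chr2:132931080-132931191, 111 bp, 6394 bp from VPS13B) had 18880 and 13940, the second highest value in BS. In WS the second highest was XLOC_010080 at 20621 FPKM, a locus listed at 0 in BS. XLOC_003419 (chr1:199316281-199316399, 118 bp), 7133 bp from the cholecystokinin receptor gene CCKBR, had 16397 FPKM in WS and 3145 in BS. At these spans the worth of 1 fragment was not fitted, so the number of fragments behind such levels was not recovered.

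Among loci of 600 bp or more, where a fragment is worth little, the highest levels rested on many more fragments. This group was formed after the values were seen. XLOC_005329 (chr13:10197805-10199024, 1219 bp), 1601 bp from B4GALT7, had 6421 FPKM in WS and 3429 in BS from 94600 and 61200 fragments. XLOC_007481 (chr18:9213387-9214097, 710 bp) had 8183 and 5962 FPKM, and XLOC_005764 (chr14:15818445-15819394, 949 bp), 3021 bp from the respiratory chain gene UQCRC2, had 5722 and 4006. XLOC_006014 (chr14:4187115-4188012, 897 bp) was higher in BS, with 3756 FPKM in WS and 4906 in BS. None of these 4 reached a 2-fold difference. XLOC_012647 and XLOC_002041 of the same group, described below, did. The nearest named loci were far less abundant: B4GALT7, an enzyme that builds the linker of proteoglycan chains, had 88.5 and 65.0 FPKM, and FBXL18 beside XLOC_006014 had 6.92 and 6.75. XLOC_011870 (chr25:1418623-1419205, 582 bp, 289 bp from ATP8B2) was of the same kind, with 16305 FPKM in WS and 12918 in BS against 60.4 and 51.9 for ATP8B2.

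**Figure D3:**
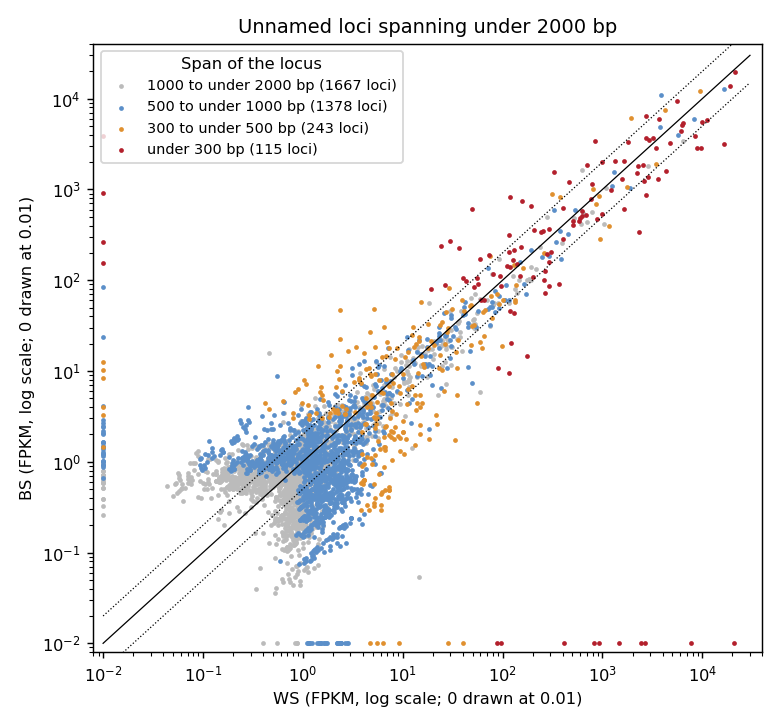
FPKM in WS (x) and BS (y), both on a log scale, of the 3403 unnamed loci under 2000 bp, colored by span, with 0 drawn at 0.01. The solid line marks equal values and the dotted lines a 2-fold ratio, and the shortest loci (red) hold most of the highest values.

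For directions, log2((BS + 1)/(WS + 1)) was computed on FPKM, and a locus counted as 2-fold apart where this reached 1 in size and the higher value was no lower than 1 FPKM. The pseudocount of 1 FPKM understates the change of low loci. Of the 2306 unnamed short loci with 1 FPKM or more, 166 (7.20%) passed this in favor of BS and 408 (17.7%) in favor of WS. Over all 15020 loci with 1 FPKM or more the shares were 4.61% and 5.69%, and 10.3% were 2-fold apart in either direction. The median log2 fold change was -0.35 for the short unnamed loci (95% interval of the median over loci, from order statistics, -0.40 to -0.30) and -0.06 for all loci. That interval takes the loci as independent although they share both libraries, and it does not cover variation between birds or libraries. Other scalings and minimum fragments, given at the end, moved the median outside it. Unnamed loci of 2000 bp or more had 61 higher in BS and 113 higher in WS of 1316, with a median of -0.14. Named loci under 2000 bp had more 2-fold loci higher in BS, 81 against 53 higher in WS of 519, while their median was -0.04. No test of these differences was possible with 1 library per color.

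The lean toward WS varied with the number of fragments. With 10 to 19 fragments in the higher library, 85 loci were 2-fold higher in BS and 309 in WS of 1325, and the median log2 fold change was -0.56. With 20 to 49 fragments the counts were 24 and 24 of 458 and the median was -0.08, and with 50 to 99 they were 14 and 11 of 137 with a median of 0.04. It returned in part at higher depth, with 14 and 24 of 203 loci at 100 to under 1000 fragments (median -0.29) and 3 and 6 of 60 at 1000 or more (median -0.45). Of the 408 loci higher in WS, 311 (76.2%) had under 20 fragments, against 87 (52.4%) of the 166 higher in BS. When loci under 20 fragments and under 300 bp were left out, 55 were higher in BS and 65 in WS. The filter of 1 FPKM itself differs between the libraries, since 10 fragments give 1 FPKM up to a span of 934 bp in WS and 824 bp in BS. The lean also changed with span, in no single order. The median log2 fold change was -0.34 under 200 bp, 0.25 at 200 to under 300 bp (12 higher in BS and 13 higher in WS of 55 loci), -0.31 at 300 to under 400 bp and -0.52 at 400 to under 500 bp. It was -0.62 at 500 to under 750 bp (54 higher in BS and 180 higher in WS of 588 loci), -0.38 at 750 to under 1000 bp, -0.28 at 1000 to under 1500 bp and -0.14 at 1500 to under 2000 bp.

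Several loci with about 100 fragments or more had large differences. The intervals given for them are exact binomial 95% intervals of the ratio from the recovered fragments. They cover counting error only, not the variation between birds or libraries, and do not account for the choice of loci by their folds. The comparison of loci with at least 100 fragments was added after the values were seen.

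Among loci with at least 100 fragments and above 0 in both libraries, the largest difference toward BS was at XLOC_004667 (chr12:9348250-9349460, 1210 bp), 739 bp from COL7A1, which encodes the collagen of the anchoring fibrils that fix epidermis to dermis. It had 0.462 FPKM in WS and 15.9 in BS from 7 and 282 fragments, a 34.5-fold ratio (15.9 to 83.5). COL7A1 itself was lower in BS, with 39.5 FPKM in WS and 21.1 in BS. XLOC_007694 (chr19:662342-662764, 422 bp), 8953 bp from ABHD11, had 2.35 FPKM in WS and 47.3 in BS from 4 and 96 fragments, a 20.1-fold ratio (6.67 to 66.1). XLOC_011737 (chr24:5527504-5529339, 1835 bp) had 0.959 and 4.18 FPKM from 24 and 126 fragments (4.36-fold, 2.80 to 7.06). It lay 2972 bp from FXYD6, a regulator of the sodium pump that was itself at 5096 FPKM in WS and 8812 in BS.

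The most abundant locus that was 2-fold higher in BS was XLOC_012647 (chr28:2166722-2167569, 847 bp). It had 3858 FPKM in WS and 10830 in BS from 33000 and 113000 fragments, a 2.81-fold ratio (2.77 to 2.84). It lay 173 bp from BSG, which encodes basigin, a membrane glycoprotein that carries lactate transporters to the cell surface. BSG had 478 FPKM in WS and 591 in BS, so the adjoining unnamed locus was well above the gene and differed more between the colors. XLOC_002041 (chr1:126773620-126774914, 1294 bp), 48388 bp from TLR7, had 627 and 1651 FPKM from 10000 and 31900 fragments (2.63-fold, 2.57 to 2.69). XLOC_001012 (chr1:158596102-158597202, 1100 bp) had 18.4 and 56.7 FPKM from 235 and 878 fragments (3.08-fold, 2.66 to 3.57), 18674 bp from IRG1, the enzyme that makes itaconate in macrophages. XLOC_017704 (chr5:53555258-53555580, 322 bp) lay 163927 bp from any named locus and had 1935 and 6120 FPKM (3.16-fold, 2.88 to 3.47).

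Toward WS, the most extreme locus was XLOC_011788 (chr25:1286812-1288351, 1539 bp). It had 14.6 FPKM in WS and 0.0531 in BS, which is 292 fragments against 1, a 274-fold ratio (62.7 to 13962). The nearest named locus, ENSGALG00000024133 at 5624 bp, was low in both, with 0.967 and 0.369 FPKM. On the same chromosome, XLOC_011785 (chr25:1192861-1193700, 839 bp) had 49.0 FPKM in WS and 7.35 in BS from 412 and 76 fragments (6.67-fold, 5.19 to 8.59). Its neighbor ENSGALG00000024136, 3287 bp away, went the same way, with 78.7 FPKM in WS and 19.7 in BS.

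XLOC_016591 (chr5:18297620-18299086, 1466 bp) had 59.5 FPKM in WS and 5.92 in BS from 1120 and 135 fragments, a BS to WS ratio of 0.0996 (0.0829 to 0.119). It lay 256 bp from TPCN2, which encodes a cation channel of endolysosomes and melanosomes that is linked to hair color in humans. TPCN2 had 7.17 and 4.89 FPKM, below the unnamed locus in both libraries. A pair of loci on chromosome 28 was lower in BS together: XLOC_012843 (chr28:784112-784845, 733 bp) had 44.6 FPKM in WS and 11.1 in BS (4.02-fold, 3.17 to 5.15), and XLOC_012732 (chr28:785866-786813, 947 bp) had 18.3 and 2.27 (8.07-fold, 5.45 to 12.6). The named genes next to them, NDUFA11 of respiratory complex I (241 and 282 FPKM) and BTN1A1 (8.78 and 8.52 FPKM), were not 2-fold apart. XLOC_018407 (chr6:11408208-11409606, 1398 bp), 47691 bp from the Wnt antagonist gene DKK-1, had 12.5 and 1.40 FPKM from 222 and 30 fragments (8.94-fold, 6.09 to 13.6), while DKK-1 had 0.278 FPKM in WS and 2.93 in BS.

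**Figure D4:**
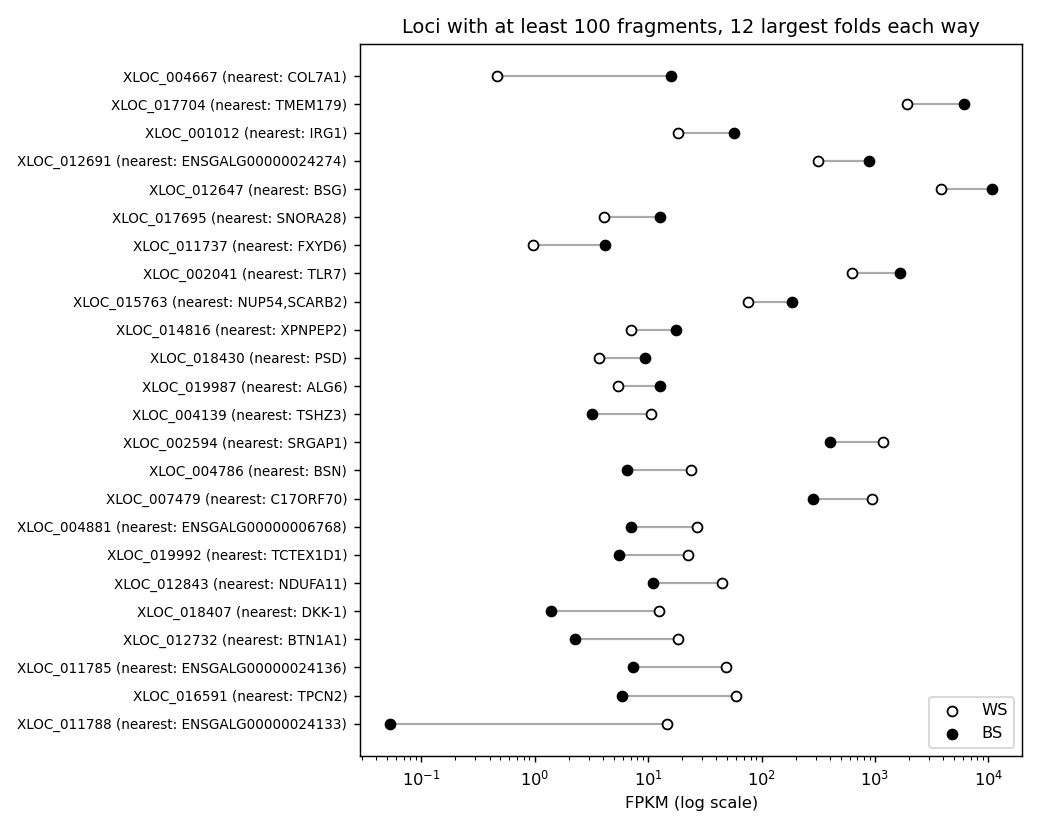
FPKM (log scale) in WS (open circles) and BS (filled circles) of the unnamed loci under 2000 bp with at least 100 fragments in the higher library and above 0 in both, the 12 with the largest log2 fold change in each direction, each named with its nearest named locus. They run from XLOC_004667 beside COL7A1 at the top (0.462 in WS and 15.9 in BS) to XLOC_011788 at the bottom (14.6 and 0.0531).

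Many of the largest folds by rule rested on few fragments. XLOC_003095 (chr1:128969893-128970226, 333 bp) had 33.3 FPKM in WS and 1.74 in BS, but from 12 fragments and 1, a 19.2-fold ratio with an interval from 2.85 to 823. It lay 1062 bp from GPR143, a melanosomal receptor whose loss causes ocular albinism in humans, and GPR143 went the other way, with 0.684 FPKM in WS and 2.77 in BS. XLOC_012560 (chr27:1533844-1534216, 372 bp), 137 bp from the B cell receptor gene CD79B, had 18.1 and 1.77 FPKM from 14 and 2 fragments (10.2-fold, 2.36 to 93.0). Both loci were picked for their folds and lay near the lower edge of fragments in the higher library. The intervals account for neither, so nothing is concluded from their lower ends. XLOC_009884 (chr2:79358439-79358760, 321 bp) had 54.9 and 4.49 FPKM from 15 and 2 fragments. Toward BS, XLOC_014733 (chr3:108009121-108009427, 306 bp) had 5.13 and 47.9 FPKM and XLOC_014484 (chr3:46111970-46112311, 341 bp) had 2.33 and 22.3, each from 1 fragment in WS and 15 in BS. The other loci of this ranking spanned under 300 bp and have no recovered fragments, among them XLOC_003162 (49.1 and 603 FPKM) and XLOC_012846 near the melanosomal transporter gene MFSD12 (177 FPKM in WS, log2 fold change -3.50).

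In all, 3293 loci were above 0 in both libraries, 50 (1.47%) only in WS and 60 (1.76%) only in BS. Over all loci above 0 the shares were 1.69% and 3.09%. Among named loci under 2000 bp they were 63 and 111 of 738. Since KRT5 was also listed at 0 in both libraries, a 0 was read only as listed and not as absence of the RNA. The loci seen in 1 library mostly sat at the lower edge of what the table lists. Of 40 WS-only loci of 300 bp or more, 14 had exactly 10 fragments, 30 had 12 or fewer and 2 had 20 or more. Of 56 such BS-only loci, 16 had exactly 10, 38 had 12 or fewer and 5 had 20 or more. Exactly 1 fragment was recovered at 74 loci in WS and 93 in BS, and 0 fragments at 56 and 40.

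A pair of BS-only loci stood clear of that edge. XLOC_008780 (chr2:15735697-15736349, 652 bp) was listed at 0 in WS and had 83.7 FPKM in BS from 551 fragments, where 1 fragment in WS would have been worth 0.189 FPKM. It lay 14740 bp from RAB18, a small GTPase of lipid droplets and membranes, which had 58.7 and 56.2 FPKM. XLOC_013838 (chr3:33176036-33176747, 711 bp) was listed at 0 in WS and had 23.9 FPKM in BS from 185 fragments. It lay 358 bp from CYP1B1, a cytochrome P450 of steroid, retinoid and xenobiotic metabolism, which was also higher in BS, with 1.98 FPKM in WS and 14.5 in BS. XLOC_011907 (chr25:1143272-1143441, 169 bp) showed the same arrangement at 917 FPKM in BS, 2812 bp from ENSGALG00000018890, which had 11.8 FPKM in WS and 379 in BS. At this span its fragments were not recovered. XLOC_017582 (chr5:23528967-23529091, 124 bp) had the highest value among BS-only loci, 3848 FPKM, and its fragments were not recovered either.

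Toward WS, the highest 1-library values were all at very short loci: XLOC_010080 (chr2:126590930-126591057, 127 bp) at 20621 FPKM, XLOC_019912 (chr8:8929552-8929706, 154 bp) at 7758, XLOC_003203 (chr1:155634421-155634561, 140 bp) at 2682 and XLOC_003251 (chr1:166126140-166126277, 137 bp) at 2440. The highest among those of 1000 bp or more was XLOC_011130 (chr22:2848360-2849410, 1050 bp), with 2.25 FPKM from 27 fragments in WS. It was followed by XLOC_002552 (1.13 FPKM, 13 fragments), XLOC_002692 (0.877 FPKM, 23 fragments) and XLOC_003357 (0.867 FPKM, 12 fragments), the last of them 1972 bp from the collagenase gene MMP1. In BS the 4 highest of this span were XLOC_014368 (0.996 FPKM, 17 fragments), XLOC_005028 (0.992 FPKM, 16 fragments), XLOC_014652 (0.951 FPKM, 25 fragments) and XLOC_010016 (0.951 FPKM, 14 fragments).

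XLOC_011130 was also 1 of 6 loci that shared identical positions with another unnamed locus, in 3 pairs, and the pairs were looked at after their values were seen. Its partner XLOC_011062 had 135 fragments in WS and 80 in BS, so the place was not empty in BS, and the pair summed to 162 and 80 fragments. At chr1:583479-585027, 592 bp from SMO (the Hedgehog signal transducer), XLOC_000014 had 43 and 19 fragments and XLOC_001275 had 7 and 38. Their FPKM differed in opposite directions, 2.14 in WS and 0.800 in BS against 0.335 and 1.55. Summed, the place had 50 fragments in WS and 57 in BS. At chr8:22244541-22246504, 4655 bp from C1ORF190, XLOC_019474 had 9 and 34 fragments and XLOC_019786 had 36 and 18, which summed to 45 and 52. Fragments of loci at the same place cannot be assigned without strand, which the table does not give, so the separate values of these 6 loci are uncertain.

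No unnamed short locus overlapped a named locus, whereas 642 of 1861 unnamed loci of 2000 bp or more did. The median distance to the nearest named locus was 5758 bp (from 11 to 737709 bp), with 562 loci (16.5%) within 1000 bp, 1603 (47.1%) within 5000 bp, 2055 (60.4%) within 10000 bp and 361 beyond 100000 bp. Chromosomes 1 to 5 held 2124 of them, 20.1% of their loci, at a median distance of 8042.5 bp. On chromosomes 6 to 10 they were 473 (13.5% of loci, median 5412 bp) and on chromosomes 11 to 28 they were 806 (12.4%, median 3107.5 bp).

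The lean toward WS grew with distance. Within 1000 bp of a named locus, 24 of 417 loci were 2-fold higher in BS (5.76%) and 33 in WS (7.91%), with a median log2 fold change of -0.09. From there to 5000 bp the share higher in WS was 13.3% (89 of 671), from there to 20000 bp 17.0% (84 of 493), from there to 100000 bp 25.6% (113 of 441) and beyond 100000 bp 31.3% (89 of 284). With all spans together the share higher in BS moved little, from 5.67% to 8.79% over these classes. The median log2 fold change went from -0.09 to -0.24, -0.38, -0.60 and -0.70. Depth moved with distance too. The median number of fragments went from 14 in WS and 17 in BS within 1000 bp to 10 and 7 beyond 100000 bp, and loci with 100 or more fragments went from 75 (13.8%) to 2 (0.581%). Loci with 10 or more fragments in 1 library alone were more often BS loci within 1000 bp (91 in WS and 126 in BS) and more often WS loci beyond 100000 bp (185 and 100). Fragments in the higher library began sharply at 10, so such loci reached that edge in 1 library alone. Their direction is given as a description, and nothing is concluded from it. Narrower spans were compared at up to 5000 bp, up to 20000 bp and beyond. At 300 to under 600 bp, 24.3%, 36.1% and 52.8% of loci were 2-fold higher in WS. The shares higher in BS there were 19.7%, 19.6% and 13.0%. At 600 to under 1000 bp, 11.2%, 16.2% and 21.0% were higher in WS. At 1000 to under 2000 bp those shares were 4.61%, 3.73% and 6.30%, in no clear order. The median log2 fold change fell with distance at all these spans. It went from -0.23 to -0.32 and -1.07, from -0.17 to -0.52 and -0.65, and from -0.19 to -0.27 and -0.46. The part of depth in this pattern was not tested.

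**Figure D5:**
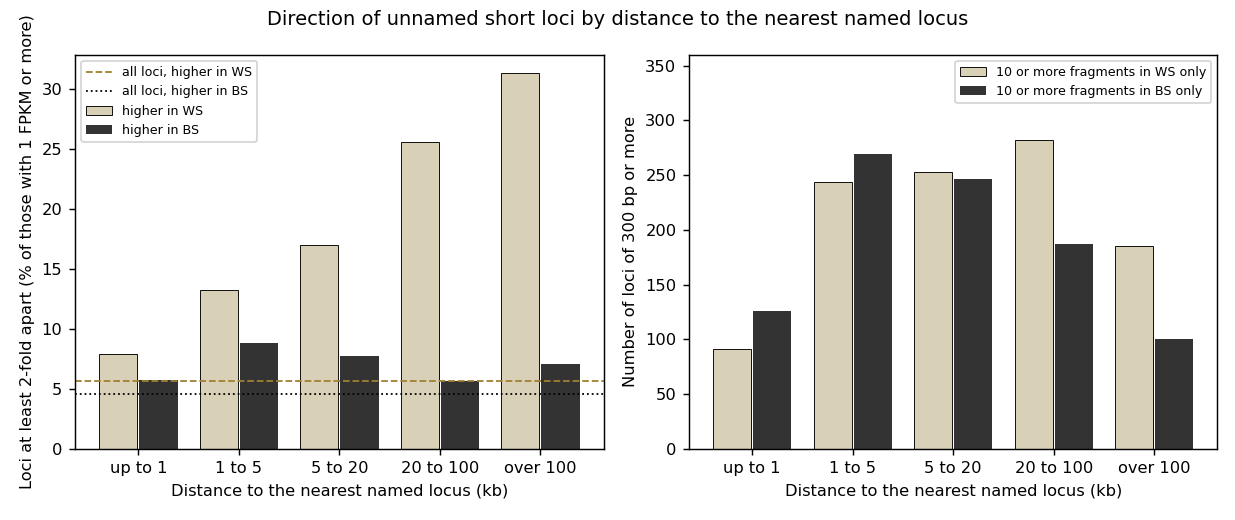
Unnamed loci under 2000 bp by distance to the nearest named locus (kb). The left panel gives the share of loci with 1 FPKM or more that were at least 2-fold higher in WS (light) or BS (dark), with dashed and dotted lines for all loci; the share higher in WS goes from 7.91% within 1 kb to 31.3% beyond 100 kb. The right panel gives the number of loci with 10 or more fragments in WS only or BS only.

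Loci close to a gene were compared with that gene as a description. Across 390 loci within 1000 bp of a named locus, with 1 FPKM or more at both, the log2 fold changes of locus and neighbor had a Pearson r of 0.20 and a Spearman rho of 0.30. Across 614 at 1000 to 5000 bp these were 0.21 and 0.24, and across 389 at 5000 to 20000 bp they were -0.03 and 0.08. With at least 50 fragments they were 0.43 and 0.41 (107 loci), 0.18 and 0.30 (179 loci) and 0.02 and 0.27 (56 loci) in the same classes. The points share both libraries, and some share a neighbor, so they are not independent. XLOC_007479 (chr18:9198543-9198869, 326 bp) was a case where both were lower in BS, with 949 FPKM in WS and 282 in BS, against 385 and 129 for C17ORF70 at 1942 bp. The COL7A1 locus above was a case where they differed in direction. The GPR143 locus differed too, but on 12 fragments in WS and 1 in BS, so nothing is concluded from it.

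Runs of unnamed short loci, each within 10000 bp of the next and with no other locus of the table between them, numbered 494 and held 1178 loci, and 10 runs had 5 or more. The longest had 6 loci at chr4:3807944-3831853, starting 929 bp from GPC4 and ending 12420 bp from GPC3, a pair of glypican genes whose products hold growth factors at the cell surface. Its loci were between 0.0587 and 2.24 FPKM in WS and between 0.539 and 1.95 in BS, 3 higher in each color and none of them 2-fold apart. A run of 5 at chr1:96339388-96358768, 3283 bp from VGLL3, was likewise mixed, with 2 lower and 3 higher in BS.

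A run of 5 at chr1:4333392-4343042 ended 491 bp from GATA3, a transcription factor of T cells, epidermis and hair follicles in mammals. All 5 were lower in BS and 3 were at least 2-fold higher in WS. XLOC_002458 (1175 bp) had 6.42 FPKM in WS and 2.47 in BS from 90 and 42 fragments, and XLOC_002461 (360 bp), the closest to the gene, had 47.9 and 19.2 from 30 and 18. XLOC_002459 had 7.60 and 4.40 FPKM from only 10 and 8 fragments, where 1 fragment was worth 0.765 FPKM in WS and 0.554 in BS. XLOC_002457 had 120 and 46.0 FPKM, and XLOC_002460 was nearly equal at 64.6 and 60.2. Both spanned under 300 bp, so their fragments were not recovered. GATA3 itself had 178 FPKM in WS and 69.2 in BS. Of the 9 unnamed short loci whose nearest named locus was GATA3, 8 were lower in BS. Among all unnamed short loci with 1 FPKM or more, 63.8% were lower in BS. The exception near GATA3 was XLOC_002462, 11609 bp away on the other side of the gene, with 0.295 and 0.968 FPKM. XLOC_002463 and XLOC_002464 on that same side, at 183682 and 274317 bp, were lower in BS.

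Neighbors of genes from 11 lists were described by counts, since several lists had few such loci. The threshold was again the log2 fold change with the pseudocount of 1 FPKM, so some loci with a plain ratio above 2 did not pass. Within 10000 bp of any named locus, 1374 loci had 1 FPKM or more, of which 104 (7.57%) were 2-fold higher in BS and 168 (12.2%) in WS. Next to homeobox and other patterning genes there were 13 unnamed short loci, 8 of them with 1 FPKM or more, 0 higher in BS and 3 in WS. XLOC_019183, 3903 bp from HOXD3, had 4.33 and 2.38 FPKM from 66 and 44 fragments. XLOC_017627 near MEIS2, a cofactor of HOX proteins, had 7.05 and 0.407 FPKM and was higher in WS on few fragments (13 and 1).

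Next to Wnt, BMP, FGF, Hedgehog and Notch genes there were 17 loci, 15 with 1 FPKM or more, 0 higher in BS and 3 in WS. The 3 were XLOC_019219 near the Hedgehog effector gene GLI2 (7.65 and 1.88 FPKM, 12 and 4 fragments), XLOC_003211 near the FGF antagonist gene SPRY2 (1.71 and 0.252 FPKM, 11 and 2 fragments) and XLOC_002553 near the ligand gene WNT16 (1.25 and 0.0932 FPKM, 11 fragments and 1). XLOC_003148, 417 bp from EDAR (the ectodysplasin receptor of feather and hair placodes), had 3.62 FPKM in WS and 7.87 in BS from 10 and 28 fragments and missed the threshold at a log2 fold change of 0.94.

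Next to the listed pigment cell genes there were 5 loci, 3 of them with 1 FPKM or more. Of these, 0 were higher in BS and 1 in WS, the GPR143 neighbor above. The list did not hold TPCN2 or MFSD12, whose neighbors described above were also 2-fold higher in WS. These were XLOC_016591 at 256 bp (1120 and 135 fragments) and XLOC_012846 at 2611 bp (fragments not recovered). Both were picked for their large folds toward WS, so their direction says nothing about neighbors of pigment genes as a group. Neighbors of other pigment genes outside the list were not looked up. XLOC_009682, 3295 bp from GPNMB (a glycoprotein of melanosomes), had 17.6 FPKM in WS and 8.60 in BS from 328 and 194 fragments, a log2 fold change of -0.95. XLOC_003951, 3526 bp from the melanocyte channel gene TRPM1, had 0.233 and 0.916 FPKM from 4 and 19 fragments, while TRPM1 had 1.14 and 4.51. Epidermal and desmosomal genes had 5 loci and none passed the threshold. XLOC_012513, 4063 bp from KRT14, had 4.40 and 1.89 FPKM from 67 and 35 fragments, a plain ratio of 2.32 (log2 fold change with the pseudocount -0.90). KRT14, a basal keratin, had 543 FPKM in WS and 374 in BS. Dermal matrix genes had 7 loci, 4 with 1 FPKM or more, and none passed the threshold. COL7A1 and GATA3 were in none of the lists. The loci beside them that are described above did pass it: XLOC_004667 near COL7A1, higher in BS, and 3 loci of the GATA3 run, higher in WS.

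Among the other lists, fatty acid and fat genes had 5 loci with 1 higher in BS and 1 in WS. XLOC_010148 (199 bp), 1533 bp from SQLE (squalene epoxidase of sterol synthesis), was listed at 0 in WS and at 260 FPKM in BS, and XLOC_014645, 3632 bp from ELOVL4 (which elongates very long chain fatty acids), had 5.25 and 1.90 FPKM from 29 and 13 fragments. Immune genes had 7 loci with 0 higher in BS and 1 in WS, the CD79B neighbor. Ribosomal protein and elongation factor genes had 5 loci with 0 higher in BS and 1 in WS. The single smooth muscle neighbor, XLOC_014574 near PLN (phospholamban, a regulator of the calcium pump), had 1.89 and 0.354 FPKM from 13 and 3 fragments. Red blood cell genes had 2 loci and skeletal muscle genes 3, and none passed the threshold. XLOC_016411, 2474 bp from the spectrin gene SPTB, was the deepest of these, with 53.5 and 32.7 FPKM from 894 and 660 fragments.

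At the span limit of 2000 bp the values on both sides overlapped. The longest loci inside it were XLOC_004996 (1992 bp, 0.506 FPKM in WS and 0.812 in BS), XLOC_014754 (1991 bp, 0.977 and 0.813) and XLOC_007039 (1990 bp, 1.67 and 0.602). The shortest outside it were XLOC_009043 (2000 bp, 0.627 and 0.955), XLOC_007021 (2002 bp, 0.683 and 0.867) and XLOC_010071 (2002 bp, 0.827 and 1.08).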

How the data were processed

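RNA of the left back skin was pooled from 3 birds per color after mRNA isolation and sequenced on an Illumina HiSeq platform. The authors deposited FPKM values for each locus. Cuffdiff and galGal4 stand in the submitters' processing notes, whereas Bowtie and another reference file stand in the published methods. The table's fold change, p value, q value and significance columns hold the authors' own comparison and were not used; its status column was read only for failed estimates.

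Members were selected by name, span and position. The members and gene lists were chosen with earlier results of these data known. Total depth is not given in the table. Fragments were recovered for loci of at least 300 bp by fitting, in each library, the mean and SD of the fragment length and the worth of 1 fragment, so that low FPKM values became whole multiples. The fit and the fold counts were tested on simulated data. Nothing is concluded from that test about the error of fold counts at loci with few fragments. Counts at 1000 or more are rounded to 3 digits. Distance is the gap in bp to the nearest locus with a name on the same chromosome, with strand ignored.

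Loci named were the 6 highest per library, the 8 largest folds per direction (at least 5 FPKM in the higher library, above 0 in both), the 6 highest listed at 0 in the other library and the 4 highest of at least 1000 bp, loci within 10000 bp of a listed gene, the 3 longest runs and those at the span limit, with a summary where fragments were few. Loci near a listed gene that were not 2-fold apart, loci with at least 100 fragments, loci of 600 bp or more, pairs at the same place, the other GATA3 neighbors and XLOC_007479 were added after their values were seen. A few loci that the rule would name are not reported here. With 1 library per color no test was run. Python 3.11.15, pandas 2.3.3, numpy 2.4.6, scipy 1.17.1 and matplotlib 3.10.9 were used. Alternatives covered the pseudocount, the filter, 3 scalings, span limits, presence thresholds, the definition of a named locus and, added after the data were seen, minimum fragments and 1 effective length.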

Additional observations from a re-analysis of the deposited data

How the results depend on the processing

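Of 77 values under alternative settings, 42 stayed close to those reported and 35 moved. No median log2 fold change changed sign. Several of the 42 could not have moved. No locus overlapped a named one, none had a failed estimate and all were above 0, so settings on these changed nothing. The 2-fold rule with the pseudocount of 1 FPKM already requires 1 FPKM, so dropping the filter could not change the fold counts. The overlap count of 0 could not rise with fewer loci. The 42 is therefore no measure of stability. The counts higher in BS and WS were 345 and 844 with a pseudocount of 0.1 FPKM (median log2 fold change -0.49), 57 and 97 with 5 FPKM (median -0.15), and 83 and 149 with a minimum of 5 FPKM. Loci of at least 500 bp gave 91 higher in BS. Without the filter on low values the median was -0.17, and with spans under 1000 bp it was -0.44. Scaling BS by the median of all loci, by the upper quartile or by the total outside the 50 most abundant loci shifted it by 0.08, 0.08 and 0.13 on the log2 scale. The median of the short loci was then -0.27, -0.26 and -0.21, and the third of these gave 209 higher in BS and 354 in WS.

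After the data were seen, loci with at least 20 fragments gave 55 and 65 (median -0.13), with at least 50 gave 31 and 41 (-0.19), and with 10 in both libraries gave 32 and 51 (-0.18). The share of 2-fold loci that were higher in BS went from 28.9% to 45.8%, 43.1% and 38.6% under these 3. One effective length in both libraries gave 167 and 357 against 142 and 376 for the same loci.

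With 0.1 FPKM as present, 93 loci were WS-only and 99 BS-only; with 1 FPKM, 815 and 374, and 1117 were in both. Spans under 1000 bp left 43 WS-only, 38 BS-only and 1655 in both, and 20 fragments left 2, 5 and 943. The order of WS-only and BS-only loci, 50 and 60 as reported, thus turned round with 1 FPKM as present and with spans under 1000 bp. The median distance was 7510 bp with gene symbols only and 8600 bp with spans under 1000 bp. No paired analysis was possible because each color has 1 pooled library, which also leaves variation between birds unmeasured. Depth limits most of these loci: 71.4% had 10 to 20 fragments in the higher library.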
